A study of Mus musculus with 10 samples.

Results

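The genes described are 68 that encode parts of the spliceosome or proteins that steer it: 20 heterogeneous nuclear ribonucleoprotein (hnRNP) genes, 11 SR protein genes, 9 SF3 genes, 12 *Snrp* genes, 3 *U2af* genes and 13 *Prpf* genes. They are the protein-coding rows of the count table whose symbols begin with Hnrnp, Srsf, Sf3a or Sf3b, Snrp, U2af or Prpf, out of 55487 rows, of which 21936 are protein coding. The question put to them was whether their mRNA levels differed between myeloid cells that expressed arginase-1 (ARG1) and those that did not. In ARG1+ cells most of them were slightly lower. Of the 65 members that could be tested, 54 (83.1%) had a log2 fold change below 0, against 50.4% of all 13740 genes tested. The single-gene decreases that passed the test were small, from 10.4% to 22.7%.

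The cells came from the spinal cords of 5 male mice, young adults on the C57BL/6 background. All of the mice carried the Arg1tm1Lky reporter, in which cells that transcribe *Arg1* also make yellow fluorescent protein (YFP). All had experimental autoimmune encephalomyelitis (EAE), an inflammatory demyelinating disease of the spinal cord induced by immunization with a myelin peptide, and were taken at its peak. There was no group without EAE and none without the reporter. From each mouse, 200000 YFP+ and 100000 YFP- cells were sorted as viable Ly6G-CD3-CD45+CX3CR1+ cells, and are called ARG1+ and ARG1- cells here. CX3CR1 is carried by monocyte-derived cells, border-associated macrophages and microglia alike, so that both gates can hold several cell types. The reporter divides cells by the YFP they held when sorted and not by origin. Each animal, named m2, m6, m234, m235 or m236, gave 1 library of each kind, so the comparison was 5 against 5 libraries.

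The total was 28870482 to 33826355 counts in the ARG1+ libraries and 28212174 to 35455643 in 4 of the ARG1- libraries. The ARG1- library of m234 was shallower, with 8396863 counts, and results are given with and without that animal where they rest on it. *Arg1* followed the sort, with 814 ± 174 CPM (SD, n = 5) in the YFP+ libraries, 18.4 ± 4.96 in the others and an adjusted p of 1.07e-07 in edgeR's quasi-likelihood test. CPM, the usual depth-scaled unit of counts, refer here to a library size corrected by the TMM factor. Fold changes are ARG1+ over ARG1-, a gene was tested if it exceeded 1 CPM in at least 3 libraries, and a gene was called at a Benjamini-Hochberg adjusted p (FDR) below 0.05 over all 13740 genes. Because both libraries of an animal varied together, each count is also given with the animal as a block, in which every mouse serves as its own control. Single members were also compared by 2-sided exact permutation tests of log2 CPM, whose smallest possible p with 5 against 5 libraries is 0.00794. These permutation tests take the libraries as independent and ignore the pairing by animal. In bulk libraries, fewer cells of a type and less RNA per cell cannot be told apart.

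Splicing removes introns from pre-mRNA. The U1 snRNP marks the beginning of an intron, while U2AF reads the pyrimidine tract and the terminal AG at its end and brings in the U2 snRNP, whose SF3A and SF3B complexes hold it on the branch point. Each of the U1, U2, U4 and U5 particles is built on a ring of Sm proteins, encoded by several of the *Snrp* genes. PRPF proteins, named after yeast mutants in pre-mRNA processing, form or remodel the U4/U6.U5 tri-snRNP and other stages of the machine. SR proteins bind exonic enhancers and mostly promote the use of nearby splice sites, whereas hnRNPs coat nascent transcripts, often repress splice sites and also govern mRNA export, stability and translation. In macrophages several hnRNPs bind the AU-rich elements of cytokine mRNAs and control how long these last.

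The promoters of 5 members are shown because the first 4 were lower in ARG1+ cells in the largest number of fits with samples left out, and the fifth was the 1 member that was higher. Gene positions in parentheses further on are those of the count table on GRCm38. Each promoter runs from 250 bases before to 50 bases after the RefSeq start on GRCm38.p6, 5′ to 3′ on the strand of the gene. Capitals mark matches on either strand to 8 motifs: ETS (CCGGAAG), NRF1 (CGCATGCG), the CCAAT box (CCAAT), the GC box (GGGCGG), YY1 (AAGATGGC), CRE (TGACGTCA), the E-box (CACGTG) and the TATA box (TATAAA). Where matches overlap or touch, they appear as 1 run. In order they lie at chr5:99978889-99979188 (reverse strand), chr4:131873387-131873686 (forward), chr1:55027429-55027728 (reverse), chrX:134600929-134601228 (forward) and chr15:99294991-99295290 (forward). The *Prpf40b* start in RefSeq lies 154 bases from the start in the count table.
Hnrnpd: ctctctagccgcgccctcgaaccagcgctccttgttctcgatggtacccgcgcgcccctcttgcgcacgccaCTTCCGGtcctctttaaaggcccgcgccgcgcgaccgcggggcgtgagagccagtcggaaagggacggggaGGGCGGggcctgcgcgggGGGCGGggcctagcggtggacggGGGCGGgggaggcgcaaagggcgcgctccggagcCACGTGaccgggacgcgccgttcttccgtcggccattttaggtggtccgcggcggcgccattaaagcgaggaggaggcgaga
Srsf4: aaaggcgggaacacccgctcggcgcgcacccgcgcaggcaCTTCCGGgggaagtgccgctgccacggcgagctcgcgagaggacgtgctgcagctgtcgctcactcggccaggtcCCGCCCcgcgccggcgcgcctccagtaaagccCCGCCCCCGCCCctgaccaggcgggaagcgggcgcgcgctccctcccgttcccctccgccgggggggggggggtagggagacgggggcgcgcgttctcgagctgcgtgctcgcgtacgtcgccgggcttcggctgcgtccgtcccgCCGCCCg
Sf3b1: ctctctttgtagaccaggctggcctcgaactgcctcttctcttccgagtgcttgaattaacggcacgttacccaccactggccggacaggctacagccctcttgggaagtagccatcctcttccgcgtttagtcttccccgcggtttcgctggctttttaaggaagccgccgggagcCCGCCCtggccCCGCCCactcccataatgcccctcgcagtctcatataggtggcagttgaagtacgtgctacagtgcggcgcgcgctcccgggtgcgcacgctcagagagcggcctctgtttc
Hnrnph2: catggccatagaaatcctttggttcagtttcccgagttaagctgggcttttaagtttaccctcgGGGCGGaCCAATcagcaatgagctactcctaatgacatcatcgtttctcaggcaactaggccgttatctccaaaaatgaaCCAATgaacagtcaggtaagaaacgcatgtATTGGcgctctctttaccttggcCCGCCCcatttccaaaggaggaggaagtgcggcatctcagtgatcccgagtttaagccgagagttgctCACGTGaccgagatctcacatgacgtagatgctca
Prpf40b: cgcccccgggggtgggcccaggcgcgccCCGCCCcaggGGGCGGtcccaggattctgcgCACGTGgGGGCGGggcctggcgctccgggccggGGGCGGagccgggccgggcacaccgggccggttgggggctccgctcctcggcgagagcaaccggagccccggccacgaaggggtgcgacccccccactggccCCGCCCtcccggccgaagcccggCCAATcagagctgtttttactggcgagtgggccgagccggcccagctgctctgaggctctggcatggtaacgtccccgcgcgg

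A promoter was found for 56 of the 65 tested members. They resembled the promoters of all 8795 tested genes with one in RefSeq in base composition, with a median GC content of 60% against 61%. The GC box was present in 67.9% of the members' promoters (38 of 56) and in 65.5% of all. CCAAT boxes stood in 50% (28 of 56) against 39.2%, and ETS motifs in 33.9% (19 of 56) against 20.0%. E-boxes were found in 14.3% against 10.5%, TATA boxes in 10.7% against 6.77%, YY1 motifs in 5.36% against 5.16%, CRE in 3.57% against 3.37% and NRF1 motifs in 1.79% against 4.21%. These are counts of letters and were not tested against expression.

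Taken over all families, 12 of the 65 tested members were lower in ARG1+ cells and 1 was higher. Among all genes tested, 6.15% were called lower and 6.82% higher. At an unadjusted p below 0.05 in edgeR, 27 members were lower and 1 was higher, where 15.0% of all genes were lower and 15.0% higher. With the animal as a block, 34 members were lower and again 1 was higher, where 18.3% of all genes were called lower and 16.8% higher. The 12 were all among the 34, so the block added 22 members and removed none. Adding a limit of an absolute log2 fold change above 1 left no member, while 1.45% of all genes passed it in either direction together with the FDR. The largest absolute value among the members was 0.49. DESeq2 called 16 members lower and 1 higher, where it called 9.51% of all genes lower and 9.29% higher. Limma-trend called 13 members lower and 0 higher, and 6.12% of all genes lower and 6.65% higher. With total counts in place of TMM library sizes 18 members were lower and 0 higher in edgeR, and among all genes the calls shifted from 937 higher and 845 lower to 701 higher and 1282 lower (9.33% of the genes tested). The median log2 fold change was -0.13 over the members and -0.0022 over all genes. The log2 fold change and its standard error for each member show the leftward shift in 5 of the families. The *Prpf* genes lay on both sides of 0, and *Prpf40b* alone was far above it.

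**Figure D1:**
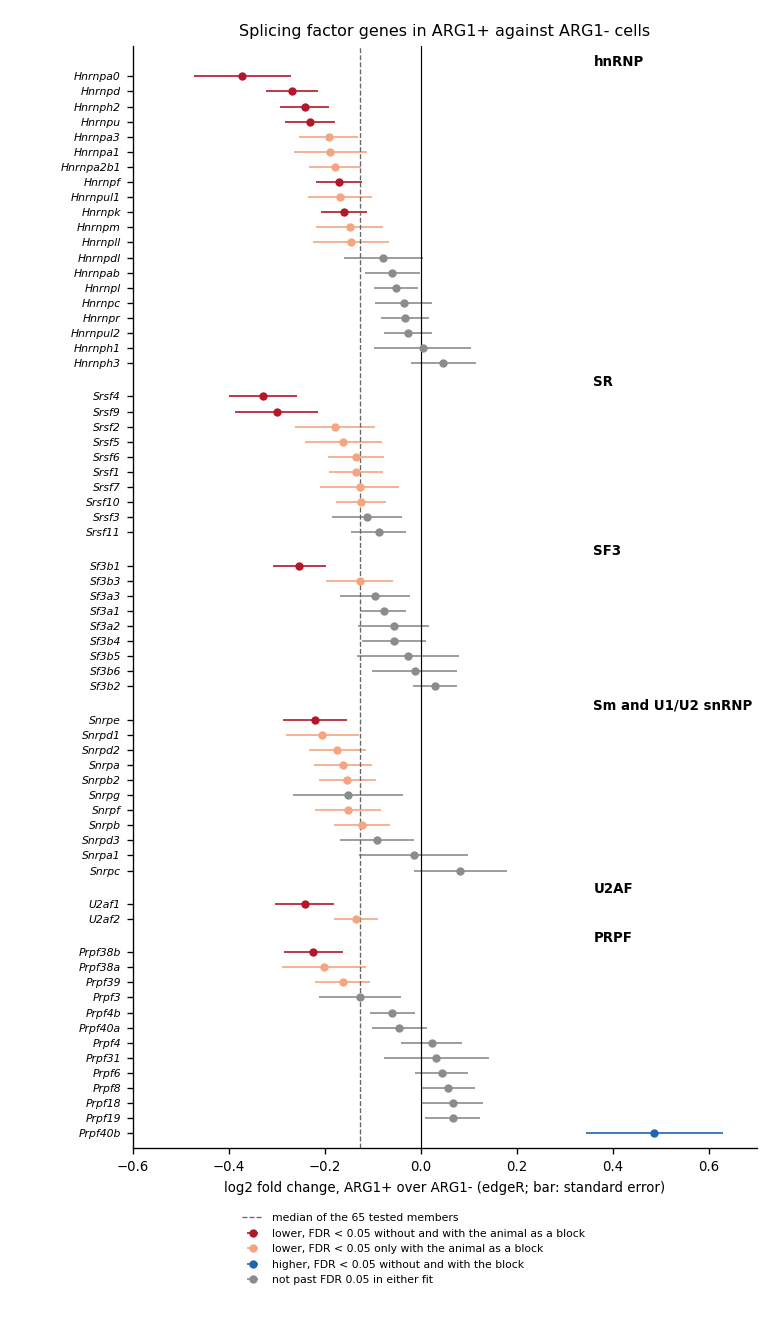
Log2 fold change of ARG1+ over ARG1- cells (x axis, point, with its standard error as a bar) for each of the 65 tested members, sorted within families. Dark red points mark the 12 members called lower with and without the block, light red the 22 called lower only with it, blue the 1 called higher and grey the rest, and the dashed line is the members' median of -0.13.

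The count without a block varied with the libraries used, as did that over all genes. Removing the ARG1+ library of m2 left 5, removing that of m6 left 6 and removing that of m236 left 7. Among the ARG1- libraries, removing that of m2 left 7, that of m6 6 and that of m235 7. Over the 10 fits without 1 library, 3.51% to 6.38% of all genes were called lower. Without both libraries of an animal it was 1 for m2, 1 for m6, 7 for m235, 5 for m236 and 8 for m234, the animal with the shallow library. In the same fits 2.32%, 2.08%, 4.76%, 3.02% and 6.70% of all genes were called lower. *Srsf4* was the member still called without m2, and *Hnrnpd* without m6. The median log2 fold change moved less, from -0.11 to -0.14 over the 15 ways of leaving samples out. With the block and without m234, 35 members were lower, where 20.8% of all genes were.

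The direction was shared between the animals. Of the 65 tested members, 38 (58.5%) were lower in the ARG1+ library of all 5 animals, against 21.0% of all genes. The genes compared with, here and in the counts of calls, were not matched to the members in level. The median difference within an animal was -0.12 in m2, -0.13 in m6, -0.11 in m234, -0.080 in m235 and -0.11 in m236 on the log2 CPM scale, and 49 to 54 members were lower in each. Over all genes the same median lay between -0.0086 and 0.0030. For 9 members the highest ARG1+ library was below the lowest ARG1- library, which was true of 5.20% of all genes. Across the members and animals, blue fields dominate the map of differences above the *Prpf* rows.

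**Figure D2:**
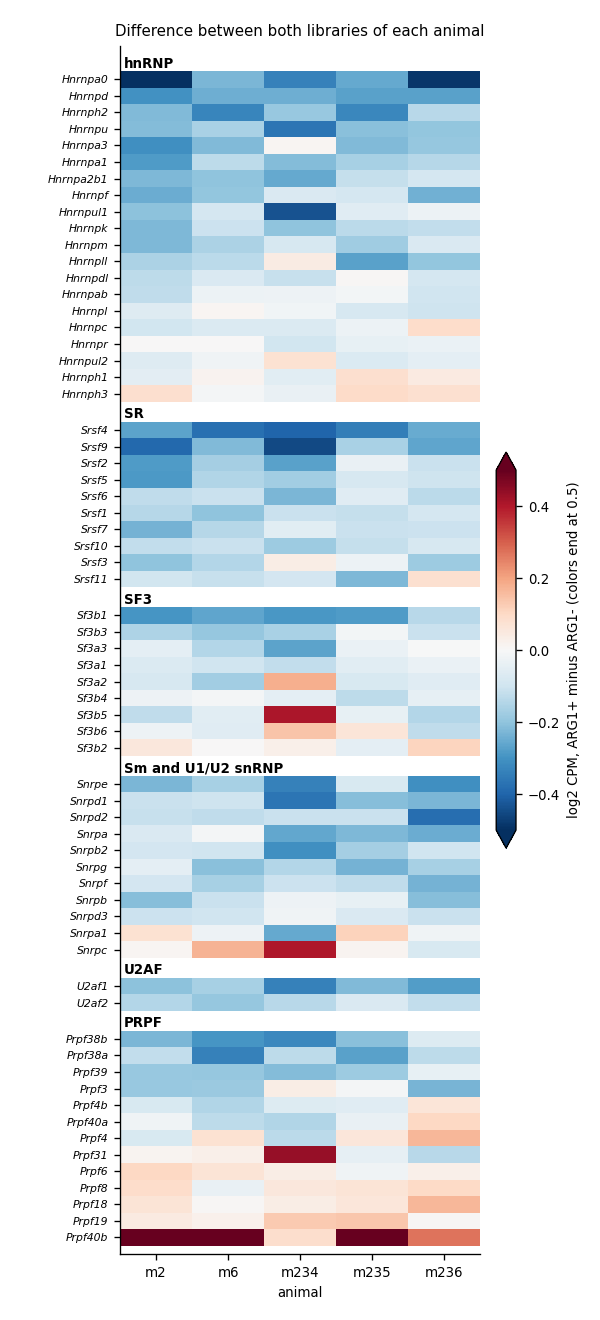
Difference in log2 CPM between the ARG1+ and the ARG1- library of each animal (columns) for the 65 tested members (rows, grouped by family and sorted by log2 fold change). Blue is lower and red higher in ARG1+ cells, and colors end at a difference of 0.5. Of these members, 38 are lower in all 5 animals and 3, all of them *Prpf* genes, are higher in all 5.

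Relative to the TMM-corrected library size of the tested genes, the 65 members together made up 0.880% in ARG1+ and 0.967% in ARG1- cells. Their summed level was 8822, 8711, 8819, 8929 and 8700 CPM in the ARG1+ libraries of m2, m6, m234, m235 and m236. In the ARG1- libraries of the same animals it was 9977, 9575, 9809, 9657 and 9333 CPM. The ranges did not overlap, and the ratio of the means was 0.910. Every family's sum was lower in ARG1+ cells in 5 of 5 animals except that of the *Prpf* genes, which was lower in 4.

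**Figure D3:**
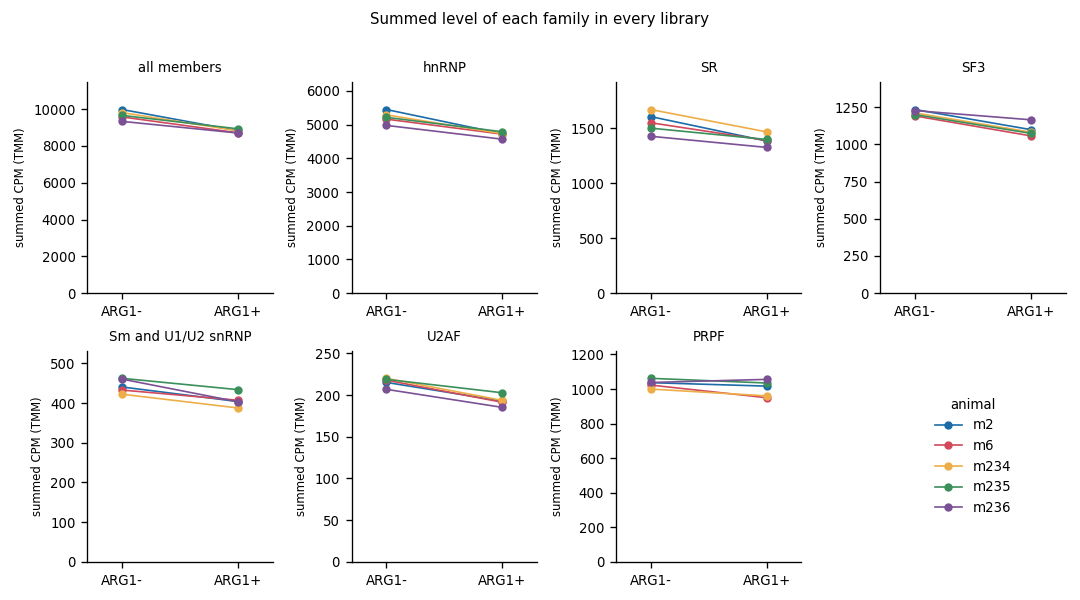
Summed CPM (y axis, from 0) of the tested members of each family in both libraries of the 5 animals, joined by a line from ARG1- to ARG1+. The sum of all members is lower in the ARG1+ library of each animal, at 8700 to 8929 CPM against 9333 to 9977 CPM, and the *Prpf* sum is higher in m236.

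The hnRNP genes gave the largest part of that sum. Of the 20, all tested, 6 were lower without a block (*Hnrnpk*, *Hnrnpf*, *Hnrnpu*, *Hnrnph2*, *Hnrnpd* and *Hnrnpa0*) and 12 with it, and the median log2 fold change was -0.15. *Hnrnpa0* (chr13:58125879-58128556, reverse strand), an AU-rich element binding protein of cytokine mRNAs, had the largest decrease of any member. Its level was 193, 242, 233, 203 and 169.5 CPM in the ARG1+ libraries of m2, m6, m234, m235 and m236, and 289, 284, 294, 242 and 237 CPM in their ARG1- libraries. The ARG1- libraries of m235 and m236 lay just below the highest ARG1+ library, that of m6, while within each animal the ARG1+ library was the lower one. Its log2 fold change was -0.37 ± 0.10 (SE), with means of 208 ± 29.6 and 269 ± 27.4 CPM (SD, n = 5 each). In edgeR the adjusted p was 0.0333, or 0.000514 with the block, and p = 0.0238 in the exact permutation test. The call was lost in 10 of the 15 fits with samples left out.

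*Hnrnpd* (chr5:99955935-99978938, reverse strand) encodes AUF1, which binds AU-rich elements and hastens the decay of inflammatory mRNAs. Across m2, m6, m234, m235 and m236, ARG1+ libraries held 165, 161, 161, 176 and 156 CPM of *Hnrnpd* and ARG1- libraries 203, 190.2, 191, 213 and 189 CPM. All ARG1+ libraries lay below all ARG1- libraries. Group means were 164 ± 7.55 and 197 ± 10.5 CPM (SD, n = 5 each). This is a log2 fold change of -0.27 ± 0.054 (SE), with an adjusted p of 0.00853 in edgeR, 0.000185 with the block and an exact permutation p of 0.00794. The call was lost in 1 of the 15 fits, without both libraries of m2 (adjusted p = 0.0527, edgeR).

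*Hnrnph2* (chrX:134601179-134607060, forward strand) and *Hnrnpf* (chr6:117900324-117925622, forward strand) encode related proteins that bind runs of G in pre-mRNA. Values of *Hnrnph2* in m2, m6, m234, m235 and m236 were 126, 119, 128, 130.1 and 132 CPM in the ARG1+ group against 147, 149.6, 146, 163 and 146 CPM in the ARG1- group. The groups did not overlap, and the ARG1- library of m235 was the highest of all. With means of 127 ± 5.09 and 150.2 ± 7.39 CPM (SD, n = 5 each), *Hnrnph2* had a log2 fold change of -0.24 ± 0.051 (SE). The exact permutation p was 0.00794 and edgeR's adjusted p 0.0103, or 0.00118 with the block. Without both libraries of m2 or of m6 its adjusted p was 0.0516 and 0.0685 in edgeR. For *Hnrnpf*, the ARG1+ libraries of m2, m6, m234, m235 and m236 held 123, 130.0, 128, 133 and 121 CPM and the ARG1- libraries 146, 149, 134, 141 and 143 CPM. Again no libraries overlapped. The means of 127 ± 4.79 and 143 ± 5.60 CPM (SD, n = 5 each) gave a log2 fold change of -0.17 ± 0.048 (SE). Its adjusted p in edgeR was 0.0364 without and 0.00747 with the block, and the exact permutation test gave p = 0.00794. The call was lost in 12 of the 15 fits, and 40.4% of the 50-base stretches of the *Hnrnpf* transcripts also occur in another annotated gene, mostly processed pseudogenes. Of its exonic bases, 24.8% are overlapped by genes of the opposite strand, and with the counts of its pseudogenes added its adjusted p was 0.0826 (edgeR). These pseudogenes held 103255 counts against 38977 of *Hnrnpf* itself. *Hnrnph3*, of the same subfamily, had the largest positive value of the hnRNP genes without passing the test, with a log2 fold change of 0.048 ± 0.068 (SE, adjusted p = 0.682, edgeR).

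*Hnrnpu* (chr1:178321108-178337797, reverse strand), also known as scaffold attachment factor A, binds chromatin and nascent RNA. Its level was 436, 427, 400.1, 406 and 437 CPM in the ARG1+ libraries of m2, m6, m234, m235 and m236, and 507, 478, 515, 469 and 501 CPM in their ARG1- libraries. The ARG1+ values all lay below the ARG1- values. Its log2 fold change was -0.23 ± 0.053 (SE), with means of 421 ± 17.2 and 494 ± 19.5 CPM (SD, n = 5 each). In edgeR the adjusted p was 0.0155, or 0.00155 with the block, and p = 0.00794 in the exact permutation test. Leaving out both libraries of m2, m6 or m236 took its adjusted p to 0.0669, 0.0672 and 0.0521 (edgeR). *Hnrnpk* (chr13:58391142-58403343, reverse strand), a KH-domain protein that binds C-rich RNA and DNA, was among the more abundant members. Across m2, m6, m234, m235 and m236, ARG1+ libraries held 383, 379, 371, 373 and 383 CPM of *Hnrnpk* and ARG1- libraries 447, 408, 427, 409 and 417 CPM. These did not overlap either. Group means were 378 ± 5.80 and 422 ± 16.1 CPM (SD, n = 5 each). This is a log2 fold change of -0.16 ± 0.048 (SE), with an adjusted p of 0.0477 in edgeR, 0.00683 with the block and an exact permutation p of 0.00794. Its call was lost in all 15 fits with samples left out and with pseudogene counts added (adjusted p = 0.0593, edgeR), and it was kept with the block.

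*Hnrnpa2b1* and *Hnrnpa1* are the classic core hnRNP proteins of the A/B class, and *Hnrnpa3* is their relative. *Hnrnpa2b1* had the highest level of all members per kilobase of exon, 277.7 CPM per kb, against a median of 27.3 over the members. Values of *Hnrnpa2b1* in m2, m6, m234, m235 and m236 were 635, 629, 606, 676 and 626 CPM in the ARG1+ group against 742, 723, 724, 733 and 665 CPM in the ARG1- group. The ARG1- library of m236 stood apart from the other ARG1- libraries and inside the ARG1+ range. With means of 634 ± 25.5 and 718 ± 30.5 CPM (SD, n = 5 each), *Hnrnpa2b1* had a log2 fold change of -0.18 ± 0.054 (SE). The exact permutation p was 0.0159 and edgeR's adjusted p 0.0512, or 0.00643 with the block. For *Hnrnpa1*, the ARG1+ libraries of m2, m6, m234, m235 and m236 held 198, 193, 226, 188 and 195 CPM and the ARG1- libraries 240.4, 211, 263, 210.4 and 215 CPM. Here m234 was high in both groups, and the groups overlapped although each animal was lower in ARG1+ cells. The means of 199.8 ± 15.1 and 228 ± 22.9 CPM (SD, n = 5 each) gave a log2 fold change of -0.19 ± 0.076 (SE). Its adjusted p in edgeR was 0.119 without and 0.00302 with the block, and the exact permutation test gave p = 0.0397. In *Hnrnpa3*, the ARG1+ libraries of m2, m6, m234, m235 and m236 held 264, 265, 266, 279 and 267 CPM and the ARG1- libraries 327, 308, 264, 324 and 305 CPM. The ARG1- library of m234 was level with the ARG1+ libraries, and 4 of 5 animals were lower. Its log2 fold change was -0.19 ± 0.061 (SE), with means of 268 ± 5.99 and 306 ± 25.1 CPM (SD, n = 5 each). In edgeR the adjusted p was 0.0611, or 0.00998 with the block, and p = 0.0476 in the exact permutation test. Without both libraries of m234 *Hnrnpa3* passed without a block as well (adjusted p = 0.0148, edgeR). Of the 50-base stretches of *Hnrnpa1* and *Hnrnpa3*, 46.7% and 28.5% also occur elsewhere, in 18 and 40 annotated pseudogenes among others, so reads may be split between copies.

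The remaining hnRNP members were called lower only with the block (*Hnrnpul1*, *Hnrnpm* and *Hnrnpll*) or in neither fit. *Hnrnpab*, *Hnrnpl*, *Hnrnpc*, *Hnrnpr*, *Hnrnpul2*, *Hnrnpdl* and *Hnrnph1* had log2 fold changes from -0.078 to 0.0041. *Hnrnpm* shares 28.6% of its exonic bases with *March2* on the same strand, and the Union mode of the authors' counting drops reads that touch several features.

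Among the SR protein genes, each of the 10 tested had a log2 fold change below 0, with a median of -0.13. Without a block *Srsf4* and *Srsf9* were called lower, and with it 8 of 10, all but *Srsf3* and *Srsf11*. *Srsf4* (chr4:131873617-131901706, forward strand) encodes a large SR protein (SRp75). Across m2, m6, m234, m235 and m236, ARG1+ libraries held 50.5, 49.3, 58.0, 53.5 and 51.6 CPM of *Srsf4* and ARG1- libraries 60.8, 64.0, 76.6, 68.0 and 61.6 CPM. The groups were separate, although the margin was narrow between the ARG1+ library of m234 and the ARG1- library of m2. Group means were 52.6 ± 3.41 and 66.2 ± 6.47 CPM (SD, n = 5 each). This is a log2 fold change of -0.33 ± 0.071 (SE), with an adjusted p of 0.0119 in edgeR, 0.000157 with the block and an exact permutation p of 0.00794. It kept its call in 14 of 15 fits and lost it without both libraries of m6 (adjusted p = 0.0655, edgeR). An antisense gene, *Gm12992*, covers 67.9% of the exonic bases of *Srsf4*, and the sources used here do not give whether counting was by strand.

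*Srsf9* (chr5:115327177-115333080, forward strand) encodes the small SR protein SRp30c. Values of *Srsf9* in m2, m6, m234, m235 and m236 were 51.7, 52.7, 49.4, 46.7 and 43.7 CPM in the ARG1+ group against 67.9, 61.3, 67.4, 52.2 and 52.5 CPM in the ARG1- group. The ARG1- libraries of m235 and m236 reached into the ARG1+ range. With means of 48.8 ± 3.67 and 60.3 ± 7.68 CPM (SD, n = 5 each), *Srsf9* had a log2 fold change of -0.30 ± 0.087 (SE). The exact permutation p was 0.0238 and edgeR's adjusted p 0.0423, or 0.00119 with the block. The call was lost in 12 of 15 fits. *Srsf5*, with 171 CPM per kb of exon the most abundant SR member, was called only with the block. In the order m2, m6, m234, m235 and m236, *Srsf5* stood at 260.2, 249, 305, 268 and 252 CPM in the ARG1+ libraries, as against 317, 276, 344, 285 and 270.3 CPM in the ARG1- libraries. Groups overlapped, and the pair from m234 was the highest of its group on both sides. The means of 267 ± 22.6 and 298 ± 31.1 CPM (SD, n = 5 each) gave a log2 fold change of -0.16 ± 0.081 (SE). Its adjusted p in edgeR was 0.202 without and 0.0103 with the block, and the exact permutation test gave p = 0.103. *Srsf5* shares 23.6% of its 50-base stretches with the pseudogene *Gm12966*. *Srsf12*, a tissue-restricted member, had 0 counts in all 10 libraries and was not tested. A count of 0 in a library still allows an expected count of up to about 3 there.

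Of the families whose sum was lower in all 5 animals, the SF3 genes had the median closest to 0. *Sf3b1* alone was called without a block, *Sf3b3* joined it with the block, and the median log2 fold change of the 9 was -0.056. *Sf3b1* (chr1:54985169-55027481, reverse strand) encodes the largest SF3B subunit, which contacts the branch point helix and is often mutated in myelodysplastic syndromes. At 95.2 CPM per kb it was also the most abundant SF3 member. Its level was 531, 518, 555, 509.5 and 579 CPM in the ARG1+ libraries of m2, m6, m234, m235 and m236, and 651, 621, 678, 619.5 and 636 CPM in their ARG1- libraries. All ARG1+ libraries were below all ARG1- libraries. Its log2 fold change was -0.25 ± 0.056 (SE), with means of 538 ± 28.3 and 641 ± 24.4 CPM (SD, n = 5 each). In edgeR the adjusted p was 0.0132, or 0.000731 with the block, and p = 0.00794 in the exact permutation test. Its adjusted p was 0.0773 without both libraries of m2 and 0.0735 without those of m6 (edgeR). *Sf3b2*, which encodes another SF3B subunit, had the highest value of the family, with a log2 fold change of 0.031 ± 0.046 (SE, adjusted p = 0.697, edgeR). The other 6 subunits ranged from -0.095 (*Sf3a3*) to -0.012 (*Sf3b6*). The SF3 genes summed to 1095 ± 41.8 CPM in ARG1+ libraries and 1213 ± 18.1 CPM in ARG1- libraries (SD, n = 5). *Sf3b1*, at means of 538 and 641 CPM, was the largest single part of both and gave most of the difference between them.

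The *Snrp* genes encode the Sm ring and proteins specific to the U1 and U2 snRNPs. Of the 11 tested, 10 had a log2 fold change below 0, with a median of -0.15. *Snrpe* (chr1:133603871-133610291, reverse strand), which encodes SmE of the ring, was called lower without a block, and 7 were with it (*Snrpe*, *Snrpd1*, *Snrpd2*, *Snrpa*, *Snrpb2*, *Snrpf* and *Snrpb*). Across m2, m6, m234, m235 and m236, ARG1+ libraries held 23.1, 23.8, 25.2, 26.9 and 24.2 CPM of *Snrpe* and ARG1- libraries 27.1, 26.8, 31.9, 28.4 and 29.9 CPM. The ARG1+ library of m235 was the only one to reach the ARG1- range. Group means were 24.6 ± 1.48 and 28.8 ± 2.12 CPM (SD, n = 5 each). This is a log2 fold change of -0.22 ± 0.066 (SE), with an adjusted p of 0.0484 in edgeR, 0.00924 with the block and an exact permutation p of 0.0159. It kept its call in 1 of the 15 fits with samples left out. *Snrpb*, which encodes SmB and is the most abundant of the family at 115 CPM per kb, passed only with the block. Values of *Snrpb* in m2, m6, m234, m235 and m236 were 123, 129, 124, 141 and 123 CPM in the ARG1+ group against 143, 139, 126, 145 and 143 CPM in the ARG1- group. Of the ARG1- libraries, that of m234 was low. With means of 128 ± 7.70 and 139 ± 7.71 CPM (SD, n = 5 each), *Snrpb* had a log2 fold change of -0.12 ± 0.057 (SE). The exact permutation p was 0.0556 and edgeR's adjusted p 0.176, or 0.0376 with the block. *Snrpc*, for a U1 protein that stabilizes pairing with the start of the intron, pointed the other way. In the order m2, m6, m234, m235 and m236, *Snrpc* stood at 26.9, 27.0, 26.7, 30.8 and 26.2 CPM in the ARG1+ libraries, as against 26.7, 23.9, 20.1, 30.4 and 27.7 CPM in the ARG1- libraries. It was higher in ARG1+ cells in 4 of 5 animals, most of all in m234, and the groups overlapped. The means of 27.5 ± 1.84 and 25.8 ± 3.93 CPM (SD, n = 5 each) gave a log2 fold change of 0.083 ± 0.097 (SE). Its adjusted p in edgeR was 0.604 without and 0.340 with the block, and the exact permutation test gave p = 0.468. Without both libraries of m234 the log2 fold change was 0.028, and without the shallow one alone it was 0.019. *Snrpa*, for a U1 protein, had groups that did not overlap and an adjusted p of 0.0949 (edgeR), or 0.0302 with the block. With pseudogene counts added, the blocked adjusted p was 0.0619 for *Snrpa* and 0.0516 for *Snrpd2* (edgeR).

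Several *Snrp* transcripts are short and copied in the genome, with 16.7% of the 50-base stretches of *Snrpc*, 21.3% of *Snrpf*, 18.9% of *Snrpa* and 18.1% of *Snrpg* shared with other annotated genes. For *Snrpf*, 85.4% of exonic bases also lie opposite another gene. *Snrpn*, the neuronal homolog of SmB, had 14 counts over all 10 libraries, at most 0.143 CPM, and was not tested.

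Both tested U2AF subunits were lower with the block, and *U2af1* also without it. *U2af1* (chr17:31647081-31658892, reverse strand) encodes the small subunit, which recognizes the AG at the end of the intron. Its level was 40.1, 40.6, 41.7, 45.5 and 40.9 CPM in the ARG1+ libraries of m2, m6, m234, m235 and m236, and 46.2, 45.5, 52.7, 53.1 and 49.7 CPM in their ARG1- libraries. The highest ARG1+ library, that of m235, was level with the lowest ARG1- library, that of m6. Its log2 fold change was -0.24 ± 0.061 (SE), with means of 41.7 ± 2.19 and 49.4 ± 3.56 CPM (SD, n = 5 each). In edgeR the adjusted p was 0.0248, or 0.00143 with the block, and p = 0.0159 in the exact permutation test. It was lost in 8 of the 15 fits, and 53.5% of its 50-base stretches are shared, chiefly with the pseudogene *Gm10232*. *U2af2*, the large subunit that binds the pyrimidine tract, was close to the threshold. Across m2, m6, m234, m235 and m236, ARG1+ libraries held 153, 151, 152, 157 and 144 CPM of *U2af2* and ARG1- libraries 169, 172, 167, 166 and 157 CPM. The ARG1- library of m236 alone touched the ARG1+ range. Group means were 151 ± 4.63 and 166 ± 5.71 CPM (SD, n = 5 each). This is a log2 fold change of -0.14 ± 0.046 (SE), with an adjusted p of 0.0729 in edgeR, 0.0109 with the block and an exact permutation p of 0.0159. *U2af1l4* had 4 counts in all and was not tested. Of its exonic bases, 94.3% are shared with the annotated gene *Gm49396* on the same strand, so that its reads could be dropped in counting.

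Of the 13 *Prpf* genes 7 had a log2 fold change above 0, with a median of 0.023, and the family was not tested against the others. Without a block *Prpf38b* was lower and *Prpf40b* higher. With the block *Prpf38a* (log2 fold change -0.20, adjusted p = 0.0114 in edgeR with the block) and *Prpf39* were lower too. *Prpf38b* (chr3:108902805-108911727, reverse strand) encodes a protein with the PRP38 domain. Values of *Prpf38b* in m2, m6, m234, m235 and m236 were 153, 152, 166, 169 and 179 CPM in the ARG1+ group against 179, 186, 207, 195 and 187 CPM in the ARG1- group. The highest ARG1+ library, that of m236, was just under the lowest ARG1- library, that of m2. With means of 163 ± 11.3 and 191 ± 10.7 CPM (SD, n = 5 each), *Prpf38b* had a log2 fold change of -0.22 ± 0.061 (SE). The exact permutation p was 0.00794 and edgeR's adjusted p 0.0330, or 0.00262 with the block. The call was lost in 10 of 15 fits. *Prpf39*, the homolog of a yeast U1 snRNP protein, passed with the block alone. In the order m2, m6, m234, m235 and m236, *Prpf39* stood at 48.7, 50.2, 51.2, 54.7 and 57.6 CPM in the ARG1+ libraries, as against 55.6, 57.5, 59.4, 62.0 and 59.3 CPM in the ARG1- libraries. Each animal was lower in ARG1+ cells, and the groups overlapped through the ARG1+ library of m236. The means of 52.5 ± 3.61 and 58.8 ± 2.37 CPM (SD, n = 5 each) gave a log2 fold change of -0.16 ± 0.057 (SE). Its adjusted p in edgeR was 0.0790 without and 0.00957 with the block, and the exact permutation test gave p = 0.0238.

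*Prpf40b* (chr15:99295087-99317018, forward strand), a WW-domain protein related to the yeast U1 factor Prp40, was the 1 member higher in ARG1+ cells. Its level was 8.37, 6.83, 7.75, 6.49 and 6.99 CPM in the ARG1+ libraries of m2, m6, m234, m235 and m236, and 4.51, 4.53, 7.30, 4.51 and 5.77 CPM in their ARG1- libraries. The ARG1- library of m234, which is the shallow one, lay within the ARG1+ range. Its log2 fold change was 0.49 ± 0.14 (SE), with means of 7.29 ± 0.763 and 5.32 ± 1.23 CPM (SD, n = 5 each). In edgeR the adjusted p was 0.0432, or 0.0101 with the block, and p = 0.0318 in the exact permutation test. With total counts in place of TMM its adjusted p was 0.0561 in edgeR, in limma-trend it was 0.0536 with a prior count of 2, and it was lost in 12 of the 15 fits. The call was kept without the ARG1- library of m234 and without both libraries of m234. *Prpf40b* was also the member with the lowest level, 1.90 CPM per kb of exon. *Prpf8*, for the large scaffold protein at the heart of the U5 snRNP, had the highest CPM of the *Prpf* genes (34.2 CPM per kb, after 58.6 for *Prpf38b*) and differed little. Across m2, m6, m234, m235 and m236, ARG1+ libraries held 278, 241, 244, 267 and 268 CPM of *Prpf8* and ARG1- libraries 261, 247, 234.7, 255 and 250.2 CPM. The groups overlapped, with 4 of 5 animals higher in ARG1+ cells. Group means were 259.5 ± 16.2 and 249 ± 9.67 CPM (SD, n = 5 each). This is a log2 fold change of 0.057 ± 0.056 (SE), with an adjusted p of 0.532 in edgeR, 0.243 with the block and an exact permutation p of 0.254. *Prpf18* and *Prpf19* were higher in 5 of 5 animals by log2 fold changes of 0.067 each and passed neither fit. The other 6 *Prpf* genes ranged from -0.13 (*Prpf3*) to 0.044 (*Prpf6*) and passed neither fit.

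**Figure D4:**
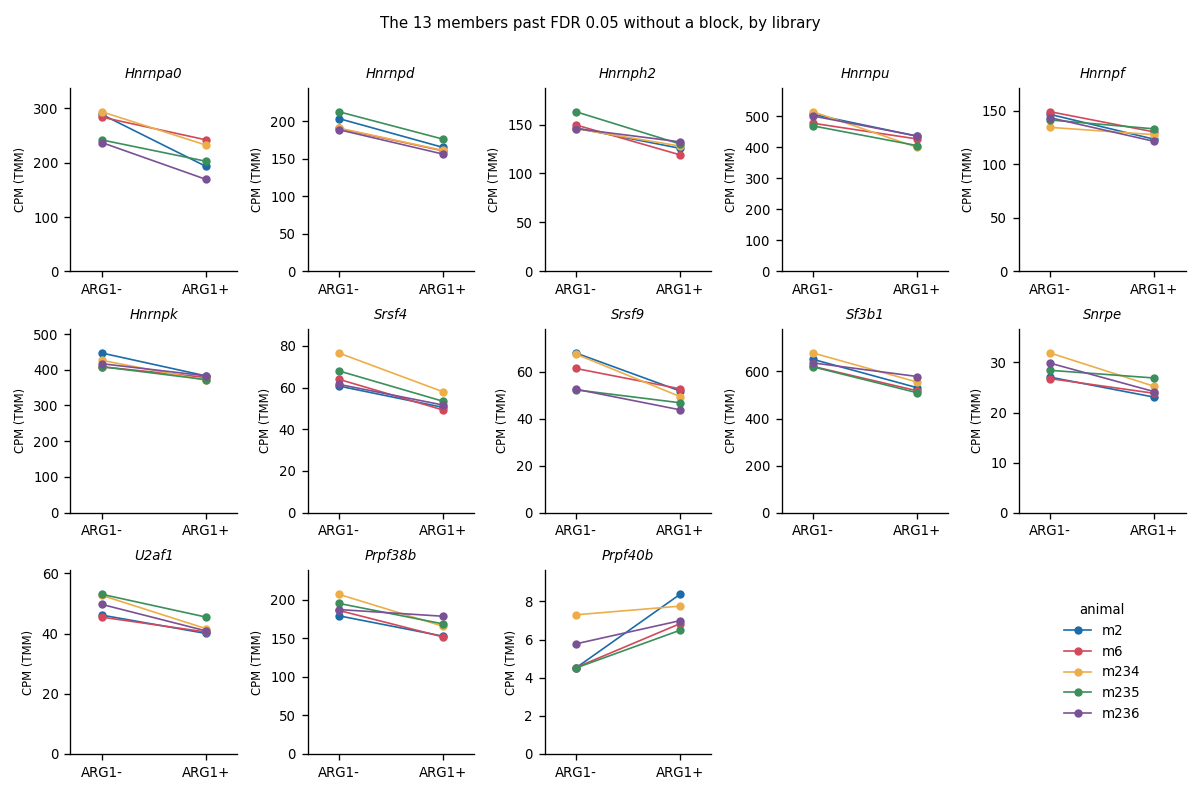
CPM (y axis, from 0) of the 13 members called without a block in both libraries of the 5 animals, joined by a line from ARG1- to ARG1+. In the 12 members called lower every line falls, while each line of *Prpf40b* rises, least in m234.

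Sequence copies could blur these values, because reads of 50 bases that fit a pseudogene equally well can be lost or counted there. Of the 65 tested members, 17 share more than 10% of the 50-base stretches of their transcripts with another annotated gene. These had a median log2 fold change of -0.16, with 4 called lower without and 13 with the block. The other 48 had a median of -0.089, with 8 called lower without and 21 with the block. With the counts of pseudogenes added to their parent genes, 12 members were again lower and 1 higher, with a median of -0.13, but they were not the same 12. *Hnrnpf* and *Hnrnpk* dropped out, while *Srsf3* (adjusted p = 0.0345) and *Snrpg* (adjusted p = 0.0316, edgeR) passed. With the block the count was again 34, in which *Srsf3* (adjusted p = 0.00301) and *Snrpg* (adjusted p = 0.00385, edgeR) took the place of *Snrpa* and *Snrpd2*. For *Snrpg* and *Hnrnpf* the pseudogenes held more counts than the gene, 6458 against 3440 and 103255 against 38977. Their results with pseudogene counts added therefore rest mostly on the pseudogene rows. The part of shared sequence in the results was not tested further.

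**Figure D5:**
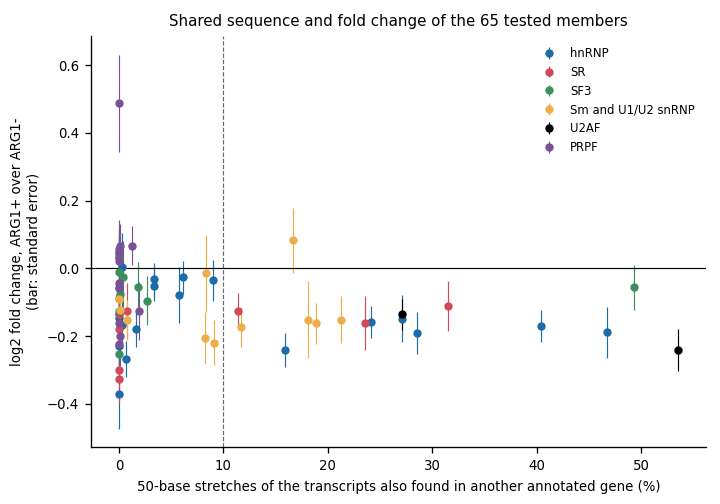
Log2 fold change of ARG1+ over ARG1- (y axis, bar: standard error) against the share of 50-base stretches of a member's transcripts that occur in another annotated gene (x axis, percent), colored by family. The dashed line marks 10%, and 16 of the 17 members to its right lie below 0, as do 38 of the 48 to its left.

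Other genes of the splicing machinery, 111 in 7 lists that were written from general knowledge, were examined in the same fits. Of the 110 tested, 80 (72.7%) had a log2 fold change below 0, against 50.4% of all genes. Without a block 8 (7.27%) were called lower and 1 higher, near the 6.15% of all genes called lower. With the block 34 (30.9%) were lower and 3 higher, where 18.3% and 16.8% of all genes were. In the list of snRNP-specific proteins, *Snrnp70*, which encodes the U1 70K protein, fell by 0.21 ± 0.051 on the log2 scale (SE, adjusted p = 0.0205, edgeR) and *Sart1* of the tri-snRNP fell by 0.17 ± 0.050 (adjusted p = 0.0477, edgeR). The list's median was -0.11 over 14 genes. Among 29 other RNA-binding regulators, with a median of -0.077, 4 fell. These were *Rbm39* (adjusted p = 0.0199, edgeR), which associates with U2AF, *Sf1* (adjusted p = 0.0259, edgeR), the branch point binding protein, *Raly* (adjusted p = 0.0267, edgeR) and *Pcbp1* (adjusted p = 0.0315, edgeR), which binds C-rich RNA.

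For the exon junction and export factors, 2 of 14 fell. The log2 fold change of *Alyref*, an adaptor for mRNA export, was -0.26 ± 0.073 (SE, adjusted p = 0.0359, edgeR) and that of *Casc3*, a core protein of the exon junction complex, was -0.17 ± 0.049 (adjusted p = 0.0424, edgeR). *Srpk2*, a kinase that phosphorylates SR proteins, rose by a log2 fold change of 0.30 ± 0.072 (SE, adjusted p = 0.0200, edgeR), and the list of 14 SR protein kinases and SR-like proteins had a median of -0.11 and 7 members lower with the block. The 10 *Lsm* genes of the Sm-like rings had a median of -0.089 with 8 below 0, and *Lsm6*, with the smallest p, had a log2 fold change of -0.15 ± 0.091 (SE, adjusted p = 0.305, edgeR). The 17 genes of the Prp19 complex and the catalytic helicases had a median of -0.034, and *Aqr* had the smallest p there, at 0.12 ± 0.053 (SE, adjusted p = 0.144, edgeR). In the 12 tested genes of snRNP assembly the median was 0.021, and *Gemin5*, which reads the snRNA for the SMN complex, was at 0.23 ± 0.081 (SE, adjusted p = 0.0771, edgeR), or 0.0114 with the block.

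The gates also differed in cell type markers. Of the dendritic cell markers, 6 of the 8 tested were lower in ARG1+ cells (*Batf3*, *Dpp4*, *Zbtb46*, *Kit*, *Flt3* and *Ccr7*), and their 10 genes summed to 21.4 to 38.9 CPM against 45.0 to 129 CPM in ARG1- cells. *Siglech*, the most abundant of these 10, was also in the list of microglia markers, so the sums of these lists are not independent. The 9 B and plasma cell markers summed to 5.85 to 17.7 against 32.3 to 68.7 CPM, with 3 of the 4 tested lower. Proliferation markers summed to 260.7 to 284.4 against 266.5 to 334.5 CPM, lower in 5 of 5 animals, with *Ccnb2* lower among the 11 tested. With the block 4 of these were lower (*Stmn1*, *Mcm5*, *Ccnb2* and *Birc5*) and 1 was higher (*Mki67*). Of the 7 monocyte markers 4 were lower, at sums of 2599 to 9102 against 2658 to 7865 CPM that were lower in 2 of 5 animals, and with the block 5 were lower and 2 higher (*Chil3* and *F13a1*). Of the 9 markers of the sorted macrophages 4 were higher (*Mertk*, *Itgam*, *Lyz2* and *Cd68*), while with the block 5 were higher and 4 lower (*Ptprc*, *Fcgr1*, *Cx3cr1* and *Csf1r*). Further, 2 of the 3 tested markers of border-associated macrophages were higher (*Mrc1* and *Pf4*), at 157 to 322 against 112 to 205 CPM. The 8 microglia markers summed to 753 to 1126 against 809.5 to 2655 CPM. Without the block 0 of them were called, and with it 6 were lower. Markers of T cells, which the CD3 gate should remove, and of NK cells, which it does not, together summed to at most 3.01 CPM in an ARG1+ library and 5.17 CPM in an ARG1- library. Neutrophil markers summed to 18.3 to 31.0 against 12.8 to 32.1 CPM. Of the 2 tested, *S100a9* was lower, and with the block *S100a8* was higher. Myelin markers summed to 147 to 180 against 138 to 197 CPM, and those of neurons and astrocytes to 59.3 to 94.5 against 52.4 to 62.5 CPM with *Aldoc* higher. None of these markers was at 0 over all 10 libraries. The part of these shifts in the lower level of the splicing genes was not tested.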

How the data were processed

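Directional RNA libraries of the sorted cells were read by the authors over 50 bases from 1 end. Alignment to GRCm38 was done with STAR (version 2.7.10b in the submitters' processing notes), and reads were counted on the basic Ensembl annotation with summarizeOverlaps in Union mode. The deposited values are whole-number counts per gene without normalization. The sources used here do not give the strand setting of the counting. Every library column was used.

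Counts were tested with edgeR 4.0.16 (quasi-likelihood, R 4.3.3), TMM library sizes and no block. The filter of CPM above 1 in at least 3 libraries left 13740 genes, over which p-values were adjusted by the Benjamini-Hochberg method. The study's methods name limma-trend, the same filter and the FDR of 0.05. Log2 CPM used a prior count of 2. In the shallowest library 1 CPM stands for 8.40 counts. Without the block, p-values measure the spread between the libraries of a group and take both libraries of an animal as independent. With the block, they measure the spread of the differences within the 5 animals.

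Alternatives were DESeq2 1.42.0, limma-trend (limma 3.58.1, prior counts of 2 and 0.5), other library sizes, no filter or filterByExpr, the fold limit, the animal as a replicate block, samples left out, and members sharing over 10% of their 50-base stretches left out. Pseudogene counts added to their parents and combinations with the block were chosen after seeing the data. The pairing by animal comes from the labels, and residuals of both libraries of an animal correlated at 0.361 to 0.664, against at most 0.0675 between animals.

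Exon lengths, overlaps and shared 50-base stretches were computed from GENCODE M21 on the same build, in which 67 of 68 members had the same span. Promoters are from RefSeq. The members, the 7 lists of other splicing genes and the marker lists were chosen with earlier results of these data known. Named are, per family, the most abundant member, those with the largest positive and negative change, those called without the block (up to 6 per direction), 6 members whose call differs with the block by smallest p, the gene of smallest p in each list, untested members and those that share sequence. Other names were chosen after their values were seen. The fits were tested on simulated data, in which libraries were independent and changes were 0.5 or 1 on the log2 scale. Of 100 genes changed by 0.5, edgeR recovered 58 without and 46 with the block. Paired libraries and changes as small as those of the members were not covered.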

Additional observations from a re-analysis of the deposited data

Results flagged for a closer look

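In 6 of the 48 groups of 5 libraries formed by the 24 named members, 1 library stood apart from the other 4. Chance flags about 1 in 20 such groups. In ARG1- cells, *Hnrnpa2b1* was at 664.8 CPM in m236 against 722.7 to 742.4 in the others, *Hnrnph2* at 163 CPM in m235 against 145.8 to 149.6, and *Snrpb* at 126 CPM in m234, the shallow library, against 139 to 145. In ARG1+ cells, *Snrpc* was at 30.8 CPM in m235 against 26.2 to 27.0, *Hnrnpa1* at 226 CPM in m234 against 188 to 198, and *Hnrnpa3* at 278.5 CPM in m235 against 264.3 to 266.5.

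Rows with the same name beginnings that are not protein coding were not members and entered no comparison by themselves, yet 5 of these 6 processed pseudogenes held counts over the 10 libraries. *Hnrnpa1l2-ps2* had 6844 counts, *Srsf3-ps* 5290, *Hnrnpa1l2-ps* 1682, *Snrpert* 936 and *Snrp1c-ps1* 99.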

How the results depend on the processing

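Of the 24 named members, *Sf3b2* alone changed sign under an alternative, to -0.0098 with total counts and -0.010 with total counts and the block, without passing the test. The 12 members called lower became 0 with the fold limit, where 0.888% of all genes were lower. Without a filter on low counts 5 were lower, where 2.32% of the 29542 genes tested were. The replicate block, which draws on the pairing by animal, gave 34, where 18.3% of all genes were lower. Leaving out samples gave 1 to 10 members lower and 0 to 1 higher, where 2.08% to 6.70% of all genes were lower. Of the added combinations, the replicate block gave 35 without m234 and 41 with total counts, where 20.8% and 23.5% of all genes were lower. It gave 21 without the members that share sequence and 34 with pseudogene counts added, with 2 members lost and 2 gained. In both of these fits 18.3% of all genes were lower. RLE factors, DESeq2, limma-trend, filterByExpr, pseudogene counts without the block and leaving out shared members gave 8 to 16 lower. In these fits 5.17% to 9.51% of all genes were lower. Pseudogene counts again lost 2 members and gained 2. The 1 member called higher became 0 with total counts, limma-trend at prior counts of 2 and 0.5, and the fold limit. The median log2 fold change of -0.13 moved to -0.17 with total counts, also with the block (-0.17), to -0.089 without the members that share sequence, and to -0.088 without them and with the block. For these moves the cause was not tested. Total counts moved the median of all genes to -0.04. The block changed no call of the named members other than those given beside them. With 5 animals and differences of 10.4% to 22.7%, calls lay near the threshold, and the shallow library of m234 limits the members with the lowest CPM.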
